A study of Mus musculus with 6 samples.

Results

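Spatial autocorrelation was compared between the brains of P21 and adult mice, gene by gene, to find which transcripts became more or less regionally patterned across this interval. Genes entered the comparison if at least 1000 UMIs (unique molecular identifiers, 1 for each captured probe pair) lay under the tissue in each of the 4 sections. This left 7797 of the 19465 genes measured. The P21 group held 2 coronal sections from male C57BL/6J mice at postnatal day 21, bred in house from animals bought from a supplier. The adult group held 2 sections from male C57BL/6J mice labelled as 12 to 15 weeks old. Each section came from 1 mouse, tissue was formalin-fixed and paraffin-embedded, and no treatment was given. The labels give the sections of an age as biological replicates. The spread behind the p-values is that between 2 sections per age, and for I it is shared across genes. Dissection, sectioning plane and block are part of that spread.

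Moran's I is a weighted correlation between the value of a gene in a spot and its values in the spots around it. It is near 0 for a transcript scattered at random and near 1 for one held in a compact territory. It falls when a territory is lost, when levels inside and outside a territory come closer, or when too few molecules are counted to show the territory. Between weaning and adulthood oligodendrocytes continue to wrap axons in the fiber tracts of the mouse brain. Building myelin membrane requires cholesterol, which brain cells make themselves because the blood supplies very little of it, and the genes of that pathway are known to be switched on together by sterol-sensing transcription factors that bind sterol regulatory elements.

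Sequencing depth differed between sections and moved with I. The total UMIs were 90098381 and 42423648 in P21 sections 1 and 2, and 52499776 and 51237027 in adult sections 1 and 2. The median I over the tested genes was 0.0382 and 0.0250 at P21 and 0.0286 and 0.0278 in adults, so that it was highest in the deepest section. Every gene was then thinned at random to 1 depth, its lowest mean UMIs per spot among the sections. This also removed differences in a gene's level between sections. The medians after it were 0.0228 and 0.0249 at P21 and 0.0219 and 0.0233 in adults. Tissue coverage also differed. In the maps of spots the P21 sections extended farther towards the midline at the base of the brain and held a broader block of hypothalamus than the adult sections. Spots assigned to the hypothalamus numbered 692 and 588 at P21 and 359 and 423 in adults, and those assigned to the fiber tracts numbered 367 and 360 at P21 and 369 and 413 in adults. Thalamic spots numbered 739 and 691 at P21 and 456 and 539 in adults, and hippocampal spots 292 and 285 at P21 and 335 and 413 in adults. As a share of all spots, the fiber tracts made up 10.2% and 10.86% at P21 and 12.65% and 12.67% in adults. The cortex made up 31.0% and 31.5% at P21 and 34.4% and 33.5% in adults. Regions were rebuilt by clustering the spots and naming the clusters from marker panels: FT for fiber tracts, HY for hypothalamus, CTX for cortex, TH for thalamus, STR for striatum and HP for hippocampus, beside small groups for the reticular thalamus, the ventricles and the meninges with large vessels. Each cluster took the name of the panel with the highest mean standardized level, so raised markers follow from the naming and do not test it. All 10 markers of the FT panel, among them Mbp and Mog, were raised in the FT clusters. So were all 10 of the HY panel, among them Otp and Gal, in the HY clusters. A CTX cluster of 1350 spots had 7 of 10 markers raised and a panel mean of 0.258, where a name needed 0.2. The other clusters named CTX, HP and TH had 8 to 10 raised. HY contains 2 clusters, and the smaller of them lay lateral and ventral, outside the midline hypothalamus.

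Regional patterning was largely shared by the ages. Across genes, which are not independent replicates, I correlated at 0.974 between the P21 sections, at 0.980 between the adult sections, and at 0.931 to 0.941 between sections of different age. The median gap between replicates was 0.0156 at P21 and 0.00928 in adults, and the median size of the difference between the age means was 0.00986. The difference exceeded the larger of its own 2 replicate gaps in 2063 genes, 817 of them higher in adults and 1246 higher at P21. By limma, 24 genes rose in I from P21 to adult (0.308% of those tested) and 76 fell (0.975%), together 1.28%, at a Benjamini-Hochberg adjusted p under 0.05. Without any test, the adult values lay above both P21 values in 1216 genes (15.6%) and below both in 1924 genes (24.7%). With 2 sections per age such separation also arises by chance, so these counts do not measure an effect of age.

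These counts rest on how the spread is estimated. Since 2 sections per age give little information on one gene, the fit took its spread from a trend across all genes. This trend replaced each gene's own spread entirely, so a gene's replicate gap did not enter its SE or p-value. Without this trend no gene was called, and 943 of the tested genes had an unadjusted p under 0.05 with it. Leaving out adult section 1 left 0 rises and 0 falls, and leaving out adult section 2 left 1 and 3. Leaving out P21 section 1, the deep one, gave 306 and 168, and leaving out P21 section 2 gave 104 and 1190. Subtracting the median I of each section gave 138 rises and 221 falls, quantile normalization gave 377 and 433, and thinning every gene to 1 depth gave 199 and 289. After thinning of each gene, all 24 rises still separated the ages in the same direction, as 22.0% of all tested genes did, and so did 73 of the 76 falls, against 25.1%, which is a description since the thinned values come from the same sections. In the following, a gene is said to have risen or fallen where it passed the main test.

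**Figure D1:**
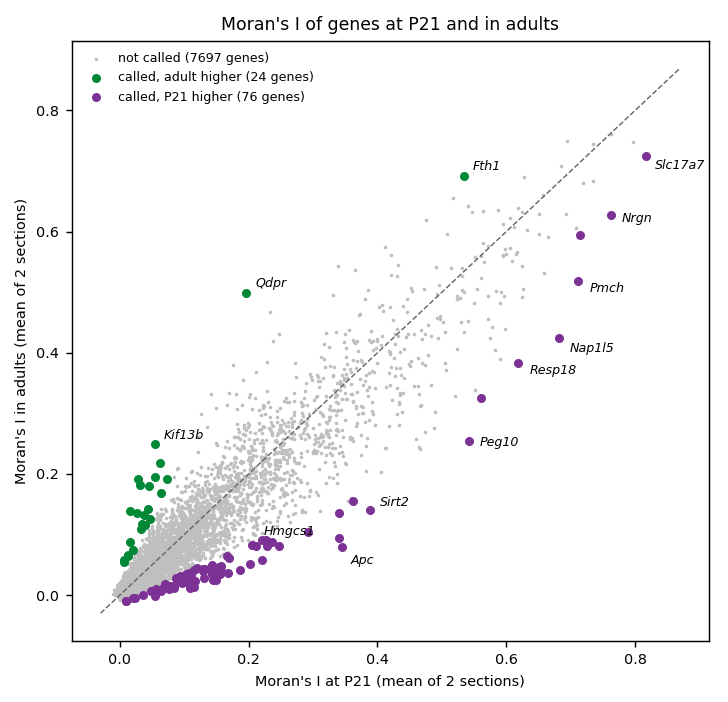
Moran's I of the 7797 tested genes, as the mean of the 2 P21 sections (horizontal) and of the 2 adult sections (vertical), both without unit, with equality as the dashed line. The 24 genes that rose are green, the 76 that fell are purple and the others grey. Qdpr has the largest difference upward and Peg10 the largest downward.

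Genes that gained pattern with age did so mainly in white matter. In adult sections 22 of the 24 rising genes had their highest CPM (UMIs of a gene scaled to a common total of the region's UMIs) in FT spots out of 6 regions compared (CTX, HP, TH, HY, STR and FT), as did 17.4% of all tested genes, and at P21 16 of the 24 did. In FT spots both adult sections lay above both P21 sections for all 24 (42.5% of all tested genes), with a median log2 ratio of 1.21. The median log2 ratio of the same genes was 0.27 in CTX spots and 0.65 in TH spots, so that the contrast between fiber tracts and gray matter widened. Recomputing I without the FT spots left a median of 40.6% of the difference for the 16 genes that were already highest there at P21, and leaving out the HY spots left 108%. Without FT spots, 21 of the 24 still separated the ages (15.4% of all tested genes), the exceptions being Cavin3, Synm and Kctd13, and by the test 3 rises and 18 falls were called among all genes.

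Qdpr showed the largest rise. It encodes quinoid dihydropteridine reductase, which regenerates the cofactor tetrahydrobiopterin, and lies on chromosome 5 at 45434021 to 45450236 (minus strand, GRCm38). Its I was 0.220 and 0.173 at P21 and 0.508 and 0.491 in adults, a difference of 0.303 ± 0.0700 (SE, adjusted p = 0.00339, limma). In FT spots its level was 322 and 356 CPM at P21 and 1142 and 1171 CPM in adults. In CTX spots it was 134 and 135 CPM at P21 and 262 and 252 CPM in adults. Both adult sections lay above both P21 sections in either region, with the larger gap in the tracts, and the maps of spots show the outline of the FT spots more sharply in adults. With each gene thinned to 1 depth, its I was 0.150 and 0.171 at P21 and 0.328 and 0.363 in adults. It is a member of the list of mature oligodendrocyte and myelin genes, as is Sec11c, a subunit of the signal peptidase complex. Sec11c went from 0.0312 and 0.0247 to 0.175 and 0.209 (difference 0.164 ± 0.0276, adjusted p = 1.32e-05).

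Kif13b, a kinesin motor that carries cargo along microtubules, rose from 0.0767 and 0.0318 at P21 to 0.244 and 0.255 in adults. Its FT level went from 66.4 and 65.0 CPM to 192 and 195 CPM, while its CTX level went from 25.8 and 27.7 CPM to 46.8 and 41.6 CPM. Fth1, the ferritin heavy chain that stores iron, was strongly patterned at both ages, with 0.560 and 0.508 at P21 and 0.669 and 0.716 in adults. Its FT level was 4239 and 4585 CPM at P21 and 10590 and 11915 CPM in adults. Oligodendrocytes are known as the cells richest in iron in the brain. Scd1, the desaturase that makes monounsaturated fatty acids for membrane lipids, rose from 0.0584 and 0.0659 to 0.192 and 0.243. Pkp4, a plakophilin of cell junctions, rose from 0.0423 and 0.0207 to 0.166 and 0.196. At P21 Pkp4 was nearly even across tissue, with 144 and 147 CPM in FT and 117 and 134 CPM in CTX, and in adults it stood at 339 and 373 CPM in FT against 143 and 138 CPM in CTX. In all of these genes the P21 and adult values did not overlap.

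The next rises were smaller. Shtn1 encodes shootin, which couples actin flow to adhesion in growing axons; its I was 0.0160 and 0.0150 at P21 and 0.151 and 0.126 in adults. For Oxsr1, a kinase that regulates chloride cotransporters, the values were 0.0278 and 0.0250 at P21 and 0.131 and 0.140 in adults. The adaptor of Cullin 3 ubiquitin ligase Kctd13 rose from 0.0691 and 0.0229 to 0.189 and 0.171. Gstp1, a glutathione S-transferase of detoxification, rose from 0.0874 and 0.0590 to 0.196 and 0.189, and changed its leading region from HY, at 140 and 156 CPM at P21, to FT, at 293 and 304 CPM in adults. Pmp22, a membrane protein known from peripheral myelin, rose from 0.0890 and 0.0392 to 0.142 and 0.196. The smallest of the 20 named rises was that of Ubxn2a, with 0.0176 and 0.0230 at P21 and 0.0811 and 0.0690 in adults. Its level was 70.3 and 72.1 CPM in adult TH spots against 45.7 and 41.2 CPM in adult FT spots.

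**Figure D2:**
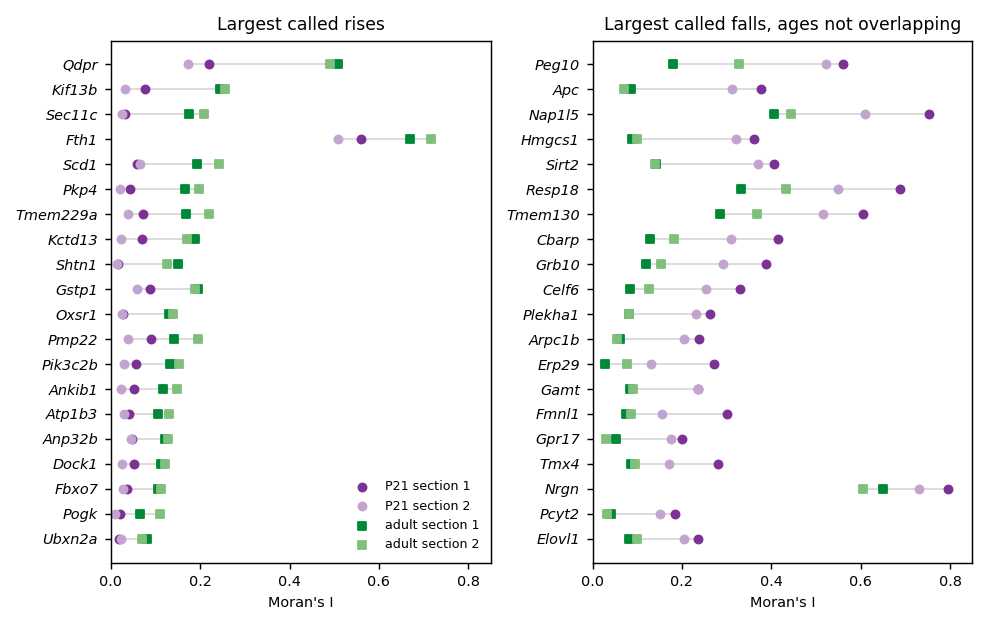
Moran's I in each section for the 20 largest rises (left) and the 20 largest falls with ages that do not overlap (right), with P21 sections as circles and adult sections as squares. For Qdpr and Hmgcs1 the gap between ages is several times the gap between sections of one age, whereas P21 section 1 lies well above P21 section 2 for Erp29 and Fmnl1.

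The mature myelin list as a whole did not move one way. Of its 29 tested genes 2 rose (0.308% of all tested genes) and none fell. The 2 were Qdpr and Sec11c, which the paper names as lower at P21 than in adults in the hippocampus. As the list was chosen with earlier results of these data known, this count does not stand for the list. Adult values lay above both P21 values in 14 members (15.6% of all) and below in 6 (24.7% of all). The median difference was 0.0429 against −0.00266 over all genes tested. Mbp, the myelin basic protein that compacts the sheath, was strongly patterned at both ages while its level fell. Mbp had an I of 0.771 and 0.754 at P21 and 0.745 and 0.776 in adults, and these values overlapped. Its level over the whole section was 9506 and 10266 CPM at P21 and 5470 and 5386 CPM in adults, a log2 fold change of −0.86. Car2, carbonic anhydrase of oligodendrocytes, went from 0.256 and 0.210 to 0.462 and 0.473 and missed the threshold at an adjusted p of 0.0601. By level, 6 members of the list rose and 12 fell by edgeR, where a call needed a change of more than 1.5 times beside an adjusted p under 0.05, which 1.04% of all tested genes passed upward and 2.39% downward (3.42% in all).

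Falling genes formed 2 main groups by where they were highest at P21. In FT were 29 of the 76, and 34 were in HY, where 16.2% and 30.0% of all tested genes had their highest CPM at P21. In adults these shares of all tested genes were 17.4% and 19.8%. In CTX were 7, in TH 4, and in HP and STR 1 each. The FT group lost pattern together with level. All 29 had lower CPM in both adult sections than in both P21 sections within FT spots (24.6% of all tested genes). The median log2 ratio was −1.46 there and −0.51 in CTX spots. Over the whole section 26 of them also fell in level (2.39% of all tested genes). The 29 were picked by a fall in I and by their highest P21 CPM in FT, in the same sections. Lower adult CPM in FT follows in part from that choice, so these counts are descriptions. Without FT spots a median of 39.0% of the difference in I remained, and without HY spots 112%.

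Cholesterol synthesis genes were among this group. Of the 20 tested members of the list 5 fell (0.975% of all tested genes) and none rose, 15 had both adult values below both P21 values (24.7% of all) and none above, and the median difference was −0.0368. By level 10 of the 20 fell (2.39% of all tested genes) and none rose. The list was chosen with earlier results of these data known, so these counts are descriptions and do not stand for the pathway. Hmgcs1, the synthase that makes HMG-CoA at the start of the pathway, lies on chromosome 13 at 119690379 to 119708260 (plus strand). Its I was 0.361 and 0.321 at P21 and 0.0874 and 0.1003 in adults, a difference of −0.247 ± 0.0522 (adjusted p = 0.000806). In FT spots its level was 763 and 1024 CPM at P21 and 208 and 209 CPM in adults, and in CTX spots it was 268 and 295 CPM at P21 and 197 and 198 CPM in adults. At P21 the tracts thus carried the highest Hmgcs1, and in adults they were level with the cortex. Thinned to 1 depth, its I was 0.205 and 0.242 at P21 and 0.0749 and 0.103 in adults.

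Cyp51, the lanosterol demethylase, fell from 0.162 and 0.136 to 0.0188 and 0.0302 (difference −0.125 ± 0.0227, adjusted p = 6.55e-05). Lanosterol synthase, Lss, fell from 0.0883 and 0.0811 to 0.00794 and 0.0231, and the sterol ketone reductase Hsd17b7 fell from 0.113 and 0.0393 to 0.0181 and 0.0122. Hsd17b7 differed more between its P21 sections than between P21 section 2 and the adult sections. Srebf2, a transcription factor of the pathway, had 0.0429 and 0.0214 at P21 and 0.0248 and 0.0271 in adults.

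The bases upstream of 4 of the 5 falling cholesterol genes are printed because these genes moved together. Each run is the 250 bases before the annotated start in RefSeq (GRCm38.p6), on the strand of the gene, with capitals marking CACCCCAC, the core letters of the sterol regulatory element, and CCAAT, the box known to bind NF-Y, both searched on either strand without overlap between the 2 motifs. CACCCCAC occurs in the Hmgcs1 run once, and CCAAT or its complement occurs in all 4.
Hmgcs1, chr13:119690101-119690350, plus strand: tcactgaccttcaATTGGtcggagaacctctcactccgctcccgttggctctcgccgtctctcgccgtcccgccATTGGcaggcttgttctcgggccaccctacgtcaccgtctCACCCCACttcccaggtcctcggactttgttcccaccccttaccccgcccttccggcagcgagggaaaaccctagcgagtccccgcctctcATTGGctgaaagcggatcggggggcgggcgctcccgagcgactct
Cyp51, chr5:4104698-4104947, minus strand: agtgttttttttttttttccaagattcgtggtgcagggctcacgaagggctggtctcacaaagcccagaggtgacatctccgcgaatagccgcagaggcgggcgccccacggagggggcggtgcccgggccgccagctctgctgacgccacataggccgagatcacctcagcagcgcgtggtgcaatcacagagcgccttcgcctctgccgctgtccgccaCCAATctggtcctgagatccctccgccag
Lss, chr10:76531355-76531604, plus strand: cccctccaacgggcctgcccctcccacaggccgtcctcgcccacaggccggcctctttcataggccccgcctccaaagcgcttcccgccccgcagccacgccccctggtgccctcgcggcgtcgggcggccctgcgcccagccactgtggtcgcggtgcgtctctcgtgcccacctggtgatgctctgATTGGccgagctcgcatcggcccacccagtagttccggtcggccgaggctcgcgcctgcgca
Hsd17b7, chr1:169969206-169969455, minus strand: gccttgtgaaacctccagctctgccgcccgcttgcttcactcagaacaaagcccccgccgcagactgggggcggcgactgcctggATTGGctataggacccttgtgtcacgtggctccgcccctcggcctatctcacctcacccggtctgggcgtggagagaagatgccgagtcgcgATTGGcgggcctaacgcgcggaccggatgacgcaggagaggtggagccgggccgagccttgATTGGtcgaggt
Over the whole list 17 of 24 genes were matched. A list gene was counted if any of its windows held the letters, while the percentages count single windows. The 2 are therefore unlike measures. CACCCCAC was in 2 of the 17, Hmgcs1 and Acat2, and in 2.58% of all 32851 promoter windows of this length. CCAAT was in 16 of the 17 and in 33.9% of all windows. These are matches of letters and were not tested as binding sites.

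In the list of newly formed oligodendrocyte genes, 3 of the 9 tested fell (0.975% of all tested genes) and none rose. Both adult values lay below both P21 values in 5 and above them in 2. The list was chosen with earlier results of these data known. Of the 3, the paper has Sirt2 and Fyn among its myelination genes higher at P21 in the hippocampus. The count is therefore not a measure of newly formed cells. Gpr17, a receptor of cells that are about to become myelinating, had an I of 0.199 and 0.175 at P21 and 0.0524 and 0.0309 in adults. Its FT level was 225 and 241 CPM at P21 and 39.1 and 50.1 CPM in adults. Sirt2, a deacetylase abundant in myelin, had 0.405 and 0.370 at P21 and 0.142 and 0.140 in adults, with 809 and 1030 CPM in FT at P21 and 258 and 242 CPM in adults. Fyn, a kinase that relays axonal signals to oligodendrocytes, had 0.121 and 0.111 at P21 and 0.0282 and 0.0179 in adults. The other members did not all follow. Bcas1 moved from 0.336 and 0.326 to 0.484 and 0.506, without passing the test (adjusted p = 0.273), and Nfasc moved from 0.407 and 0.360 to 0.246 and 0.274 (adjusted p = 0.481). Of the 7 tested markers of oligodendrocyte precursors none passed, where 1.28% of all tested genes did. Erythrocyte genes, which vary with the blood left in a section, had an I that was not called in either of 2 tested members, although both fell in level (2.39% of all tested genes).

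**Figure D3:**
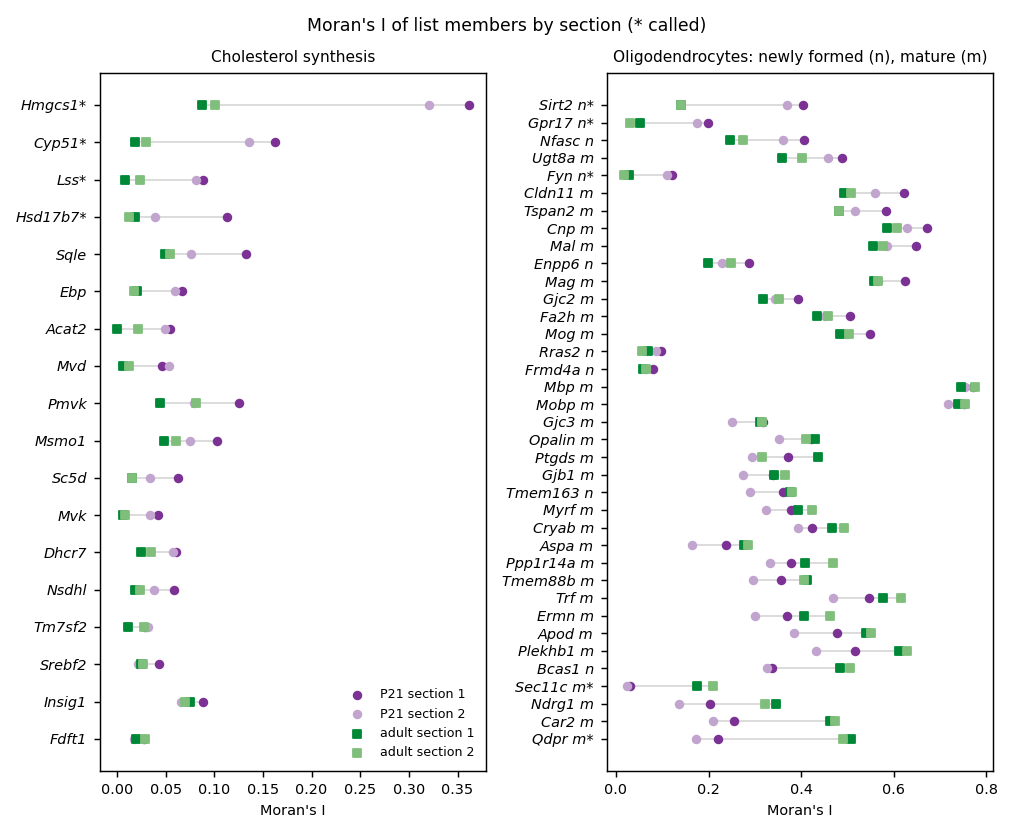
Moran's I in each section for genes of the cholesterol synthesis list (left) and of the newly formed (n) and mature (m) oligodendrocyte lists (right), ordered by the difference between ages; asterisks mark genes that passed the test. For most of the cholesterol genes shown both squares (adult) lie left of both circles (P21), while for Mbp and Mobp the ages overlap.

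The other named falls highest in FT at P21 were of varied function. Arpc1b, a subunit of the actin-branching Arp2/3 complex, fell from 0.237 and 0.206 to 0.0611 and 0.0537. Gamt, which makes creatine, fell from 0.237 and 0.236 to 0.0845 and 0.0893, and Plekha1, an adaptor that binds phosphoinositides, fell from 0.262 and 0.232 to 0.0804 and 0.0820. Pcyt2, of phosphatidylethanolamine synthesis, had 0.184 and 0.151 at P21 and 0.0413 and 0.0330 in adults. Elovl1, an elongase of very long fatty acids, had 0.236 and 0.205 at P21 and 0.0823 and 0.0989 in adults. All of these fell in level too. With each gene thinned, which also removed differences in level, the differences in I were smaller. Gpr17 then had 0.0602 and 0.0768 at P21 against 0.0499 and 0.0234 in adults. Gamt had 0.0957 and 0.151 against 0.0804 and 0.0942, with ages still apart in both. With whole sections thinned to 1 depth instead, Gpr17 had 0.131 and 0.171 at P21 and 0.0375 and 0.0208 in adults. Gamt had 0.173 and 0.229 at P21 and 0.0529 and 0.0816 in adults.

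In the second group, 34 falling genes were highest in HY at P21, and 4 of them fell in level over the whole section (2.39% of all tested genes). The hypothalamus and preoptic list had 3 of 14 tested genes falling (0.975% of all tested genes) and none rising, 11 with both adult values below both P21 values (24.7% of all), and a median difference of −0.152. This list too was chosen with earlier results of these data known, so its counts are descriptions. Nap1l5, an imprinted gene of the nucleosome assembly family on chromosome 6 (58905233 to 58907076, minus strand), had 0.753 and 0.611 at P21 and 0.405 and 0.444 in adults, a difference of −0.257 ± 0.0506 (adjusted p = 0.000266). Its HY level was 2617 and 2526 CPM at P21 and 1491 and 1673 CPM in adults. Peg10, an imprinted gene derived from a retrotransposon, had 0.561 and 0.522 at P21 and 0.180 and 0.328 in adults, and its HY level was 256 and 273 CPM at P21 and 77.8 and 122 CPM in adults. Resp18, a protein of endocrine secretory granules and a marker of the HY panel, had 0.688 and 0.550 at P21 and 0.333 and 0.433 in adults. Grb10, an imprinted adaptor of growth factor receptors, had 0.388 and 0.291 at P21 and 0.119 and 0.154 in adults. In all 4 the higher adult value came from section 2, which also held more HY spots than adult section 1. The larger HY cluster held 497 and 430 spots in P21 sections 1 and 2, and 211 and 212 in adult sections 1 and 2. The smaller one, lateral and ventral, held 195 and 158 at P21 and 148 and 211 in adults. Whether these spot numbers bear on the values of I was not tested.

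The pattern of these genes lay in HY spots, by which they were grouped, so leaving those spots out can remove a difference whatever its origin, and the same holds for FT genes and FT spots. Leaving out HY spots in every section left a median of 24.4% of the difference for these 34 genes, and leaving out FT spots left 99.1%. Among all genes 29 rises and 35 falls were called without HY spots, and 58 of the 76 falls still separated the ages (17.5% of all tested genes). Peg10 without HY spots had 0.189 and 0.125 at P21 and 0.0921 and 0.184 in adults, which overlap. Within HY spots, 28 of the 34 genes had lower CPM in both adult sections than in both P21 sections (29.3% of all tested genes), with a median log2 ratio of −0.51. The 34 were picked by a fall in I and by their highest P21 CPM in HY. Lower adult CPM in HY follows in part from that choice, so this count is a description. As the sections of the 2 ages held different numbers of HY spots, tissue coverage and age cannot be told apart for these genes. The same holds for rising and falling genes of the other regions, since the shares of FT, CTX, TH and HP spots also differed between the ages. Pmch, the precursor of melanin-concentrating hormone made in the lateral hypothalamus, differed widely between the adult sections. It passed the test with 0.807 and 0.617 at P21 and 0.337 and 0.700 in adults (adjusted p = 0.000672), but adult section 2 lay above P21 section 2, and with 62021 and 21084 UMIs at P21 the adult sections held 1478 and 20347. With each gene thinned, the sign of the Pmch difference turned, with 0.428 and 0.407 at P21 and 0.331 and 0.546 in adults. This thinning also removed its differences in level. With whole sections thinned to 1 depth instead, Pmch had 0.751 and 0.611 at P21 and 0.306 and 0.690 in adults.

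**Figure D4:**
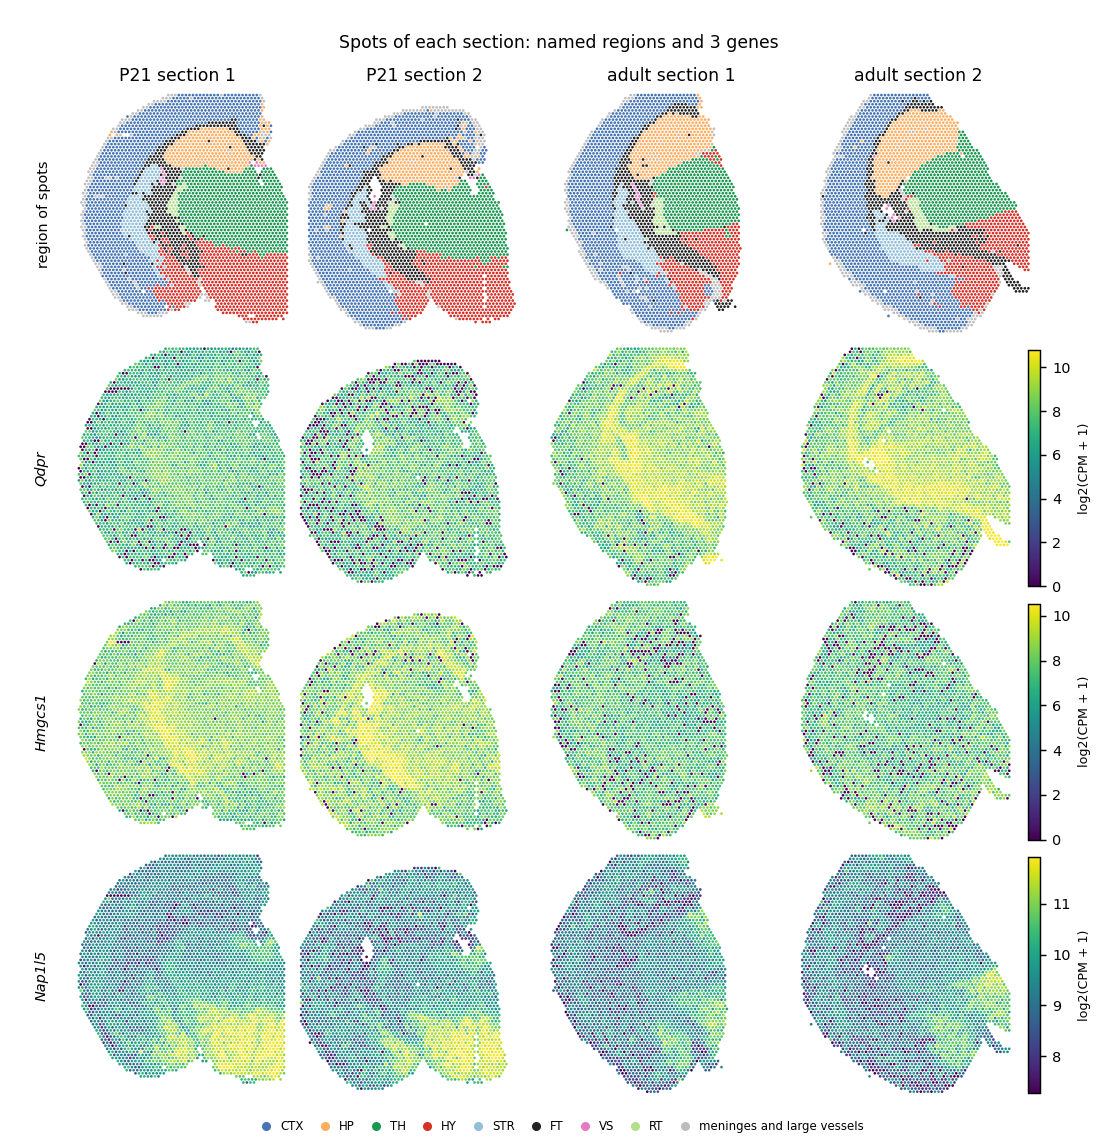
Spots of the 4 sections in the plane of the tissue, coloured by named region (top) and by the level of Qdpr, Hmgcs1 and Nap1l5 as log2 of CPM plus 1 (lower rows, 1 colour scale per gene). Qdpr outlines the fiber tracts more sharply in the adult sections and Hmgcs1 in the P21 sections, and Nap1l5 is highest in HY at both ages, over 692 and 588 HY spots at P21 and 359 and 423 in adults.

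**Figure D5:**
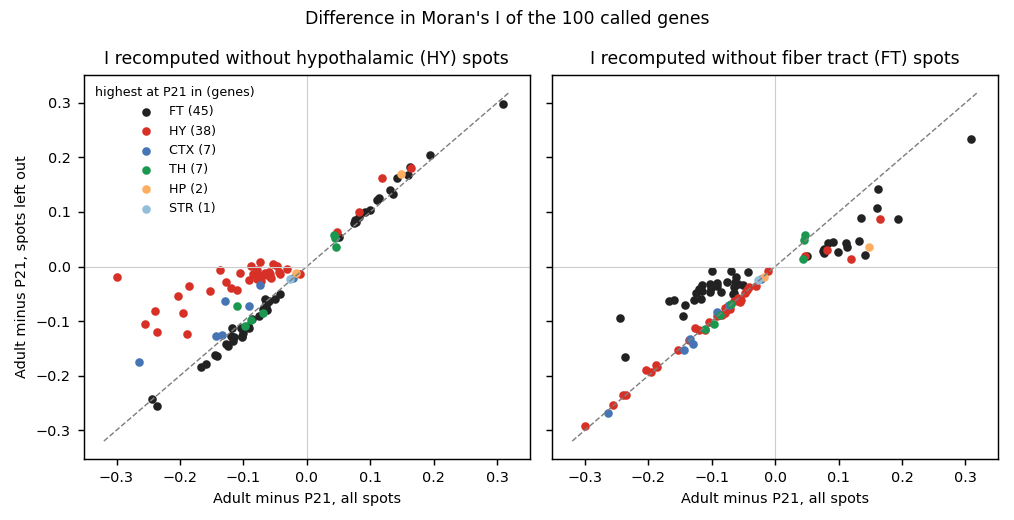
Difference in Moran's I, adult minus P21, of the 100 genes that passed the test, recomputed over all spots (horizontal) and with HY spots (left) or FT spots (right) left out (vertical), with equality as the dashed line. Falling genes highest in HY at P21 (red) move towards 0 on the left, where their median is 24.4% of the full difference, and genes highest in FT (black) move towards 0 on the right.

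Of the 7 falling genes highest in CTX at P21, 1 also fell in level (2.39% of all tested genes). Nrgn, the calmodulin-binding neurogranin of dendritic spines, had 0.795 and 0.730 at P21 and 0.650 and 0.606 in adults, a difference of −0.134 ± 0.0288 (adjusted p = 0.00108). Its CTX level was 1460 and 1437 CPM at P21 and 1183 and 960 CPM in adults, while its HY level was 287 and 296 CPM at P21 and 346 and 385 CPM in adults. Slc17a7, the vesicular glutamate transporter VGLUT1 and a CTX panel marker, had the highest mean I among all genes at P21. Its I was 0.845 and 0.789 at P21 and 0.696 and 0.753 in adults (adjusted p = 0.00168), and its log2 fold change in level was 0.09. Fmnl1, a formin of actin filaments, had 0.301 and 0.155 at P21 and 0.0739 and 0.0870 in adults. Apc, a scaffold that restrains Wnt signalling, was the one that fell in both, with an I of 0.377 and 0.313 at P21 and 0.0862 and 0.0711 in adults. Its CTX level was 599 and 629 CPM at P21 and 329 and 331 CPM in adults, whereas its HY level was 309 and 300 CPM at P21 and 283 and 268 CPM in adults. Leaving out HY spots left a median of 78.6% of the difference for the 7 genes highest in CTX at P21.

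Within the cortex alone no difference passed. Moran's I was recomputed over the CTX spots, 1115 and 1043 at P21 and 1003 and 1091 in adults, for the 2982 genes with at least 1000 UMIs there in each section. By limma none rose and none fell (0% in each direction), with 117 at an unadjusted p under 0.05. With each gene thinned to 1 depth, which also removed differences in a gene's level between sections, 6 rose and 3 fell. Among the 6 were Qdpr, from 0.00828 and 0.0103 at P21 to 0.107 and 0.102 in adults, Marcksl1, a membrane protein that organises actin, from 0.0760 and 0.0539 to 0.246 and 0.223, and Tmem163, a zinc transporter of vesicles, from 0.0975 and 0.0779 to 0.264 and 0.276. Among the 3 that fell were Ptgds, the prostaglandin D synthase of meninges and oligodendrocytes, and Gnas, the stimulatory G protein subunit. These genes were chosen after their values were seen. Over whole sections the log2 fold change in level was 1.28 for Qdpr and −0.88 for Tmem163.

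The 10 genes with the highest mean I over the 4 sections, a choice that fixes a high I at both ages, lay between 0.661 and 0.772 and included the myelin genes Mbp and Mobp, the forebrain neuronal genes Slc17a7, Nrgn, Camk2n1 and Olfm1, the thalamic Prkcd, the calmodulin regulator Pcp4 and the choroid plexus gene Ttr. Of these 2 fell (0.975% of all tested genes), Slc17a7 and Nrgn, and none rose. Prkcd, protein kinase C delta of thalamic relay neurons, had 0.716 and 0.671 at P21 and 0.731 and 0.769 in adults (adjusted p = 0.329). Ttr, the carrier of thyroid hormone in cerebrospinal fluid, had 0.747 and 0.638 at P21 and 0.662 and 0.597 in adults.

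Calls in pattern and in level overlapped in part. Of the 24 genes that rose in I, 10 also rose in level, which is 41.7% of the rises in I and 12.3% of the 81 rises in level, where 1.04% of all tested genes rose in level. Of the 76 that fell in I, 31 also fell in level, which is 40.8% of these and 16.7% of the 186 falls in level, where 2.39% of all tested genes fell in level. No gene changed in opposite directions. Both readouts come from the same sections. Some genes missed the call in level through the fold threshold alone. Resp18, with the largest difference in I among genes not called in level, had a log2 fold change of −0.45 at an adjusted p of 0.00225 by edgeR. Next came Cbarp, a regulator of calcium channels, with an I of 0.414 and 0.309 at P21 and 0.129 and 0.182 in adults, and a log2 fold change in level of −0.55 (adjusted p = 0.000193, edgeR). Celf6, an RNA-binding protein, had 0.330 and 0.254 at P21 and 0.0842 and 0.125 in adults, with a log2 fold change in level of −0.58 (adjusted p = 0.0039, edgeR).

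Calls in the other gene lists were few, as they were over all tested genes (1.28% in either direction). At that share a list of this size can hold no call, so a lack of calls does not describe a list. Beyond the groups above, among 38 lists of cell type markers, regional markers and gene families, calls were found for the hypothalamic neuropeptides (Pmch, 1 of 11 tested) and for Slc17a7, which belongs both to the habenula list and to the synaptic vesicle list. The counts of members apart between ages stand against 15.6% of all tested genes above and 24.7% below. The thalamus list had no call among 27 tested genes and a median difference of 0.0170, with 8 genes whose adult values lay above both P21 values and 4 below. Striatal markers had a median of 0.0423 over 12 tested genes, 4 of them above and none below. For microglia, 6 of 10 tested markers lay above and none below, with a median of 0.0183, and for the endothelial and mural list 4 of 8 lay above and none below. Genes of immature neurons and growth went the other way, with 2 of 22 above, 10 below and a median of −0.0322. Neither the respiratory chain genes (45 tested, median 0.00603) nor the proteasome subunits (29 tested, median −0.00405) moved far from the median over all genes of −0.00266. None of these members passed the test.

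The genes just inside the count minimum were Ankrd42, with 1000 UMIs in its lowest section, and 6030458C11Rik and Cryl1, with 1001 each. Ankrd42 had an I of 0.0269 and 0.00277 at P21 and 0.00144 and −0.00212 in adults. Just outside it were Aptx, Atg14 and Tmem159, with 999 each, of which Tmem159 had 0.0452 and 0.0317 at P21 and 0.0605 and 0.0462 in adults.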

How the data were processed

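Spots of FFPE coronal sections were profiled with the Visium v1 mouse probe panel, and the authors aligned reads to mm10 with Space Ranger (2.0.0 per the file headers of the P21 and adult matrices; the labels list 2.1.0). Deposited Moran's I values are a score per gene and section whose neighbour weights are not given in the sources used here, and the deposited matrices hold UMI counts per gene and spot. The same deposited tables hold a p-value for each I and a normalized mean signal per spot, computed by Space Ranger for the authors, which were not used. The members and lists were chosen with earlier results of these data known.

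I was fitted as adult minus P21 with limma 3.58.1 (lmFit, eBayes with trend) and Benjamini-Hochberg adjustment over 7797 genes. Levels were tested on UMI counts summed per section with edgeR 4.0.16 (quasi-likelihood), with DESeq2 1.42.0 as an alternative. For thinning, for the cortex and for leaving out regions, I was recomputed from log-normalized counts with 18 neighbours per spot. This number was picked by trying several against the deposited I of adult section 1, and the recomputed I correlated with the deposited I at 0.998 to 0.999 per section. Regions came from Leiden clustering (leidenalg 0.10.2, 3000 variable genes, 10 principal components, 20 neighbours, spots with at least 250 genes and 500 UMIs), which gave 17 clusters at resolution 0.6. A first, coarser resolution had labelled spots at the place of the amygdala as meninges, and the stopping rule was changed after seeing that map. Of the called genes 97 were kept out of the clustering, but the panel markers Resp18, Baiap3 and Slc17a7 were used. Cluster names, and values within regions, are therefore descriptions. Doublets were not called, since spots can hold several cells.

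Named genes were the 20 largest rises and falls with ages apart, up to 3 called genes per list, the 10 highest mean I and the largest calls without a call in level. Lss, Hsd17b7, Srebf2, Car2, Bcas1 and Nfasc were added after their values were seen. Some single-gene results are not reported here, and counts include those genes. The fits were tested on simulated data, in which the spread of I followed a trend across genes. The main fit assumes such a trend, so the simulation does not test that assumption. Promoters were read from RefSeq (GRCm38.p6). The pairing of replicate numbers was checked by the correlation of deviations from the age means, which was 0.00127. This value gave no sign of pairing. It cannot exclude a shared slide or batch, since the P21 sections differed in depth and the adult sections hardly did. The 28-month sections entered 1 alternative.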

Additional observations from a re-analysis of the deposited data

How the results depend on the processing

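The number of genes called in I depended on the processing, given as adult higher and P21 higher against 24 and 76. There were 0 and 0 without the trend and without a count minimum, 6 and 16 at a minimum of 5000 UMIs, 138 and 221 after centring, 377 and 433 after quantile normalization, 220 and 304 with sections thinned, and 199 and 289 with genes thinned. Chosen after seeing the data, leaving out HY spots gave 29 and 35 and leaving out FT spots 3 and 18. Leaving out 1 section gave 0 to 306 and 0 to 1190. With the replicate block the counts were 20 and 55. Of the 100 calls, 86 were kept with genes thinned, 75 with the block, 50 without HY spots, 20 without FT spots, 0 without adult section 1 and 4 without adult section 2. For level, testing every gene with at least 1 UMI gave 455 and 1027, leaving out 1 section gave 80 to 91 and 175 to 203, and the block gave 81 and 188. In the cortex thinning genes gave 6 and 3, leaving out 1 section gave 0 to 1 and 0 to 0, and the block gave 0 and 0.

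Of the alternatives for the I of single genes 665 kept the status of the main fit, 275 lost a call, 8 gained one and 14 turned the sign. The 665 include genes that were not called in the main fit and stayed so. The difference for Mbp turned to 0.00155 after centring, 0.0330 after quantile normalization, 0.0103 when recomputed, 0.0136 with sections thinned, 0.0234 with genes thinned, 0.00676 without P21 section 1, 0.0139 without adult section 1 (−0.0175 without adult section 2), 0.00789 without HY spots and 0.00963 with 6 neighbours. With genes thinned it turned to 0.0208 for Pmch. Mobp turned to −0.00618 without P21 section 2 (0.0287 without P21 section 1) and −0.00905 without FT spots, Pcp4 to −0.0262 without P21 section 2 (0.0723 without P21 section 1), and Olfm1 to 0.00464 without HY spots. In level, the log2 fold change of Ttr turned to 0.000178 without P21 section 1 and 0.41 without adult section 2 (−0.71 without adult section 1), and that of Prkcd to −0.13 without adult section 2 (0.24 without adult section 1). The cause was not tested. With 2 sections per age, leaving out 1 leaves a lone section whose spread is taken from the other age.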
